A study of Mus musculus with 7 samples.

Results

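The collagen chain genes of subcutaneous Lewis lung carcinoma tumours were examined in mice treated with a herbal preparation, Ze-qi decoction at its high dose (ZQD), and in untreated tumour-bearing mice. Members were all genes whose symbol is Col, a type number, the letter a and a chain number. This gave 43 genes of 32212 in the files, of which 24 passed a level filter of at least 0.5 FPKM in at least 3 of the 7 libraries, as 14838 of all genes did. By structural class, 11 genes (8 past the filter) encode fibrillar chains, 6 (3) chains of basement membranes, 6 (3) chains of microfibrils and 9 (5) fibril-associated collagens with interrupted helices (FACIT). A further 3 (1) encode short-chain network collagens, 4 (1) transmembrane collagens and 2 (2) multiplexins, and 1 (1) encodes the anchoring fibril chain Col7a1. Col28a1, which fits none of these classes, did not pass the filter.

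Collagens are triple helices of chains wound around each other. Fibrillar chains are secreted as procollagens, trimmed outside the cell and laid down as banded fibrils that give connective tissue its strength. Type IV chains form the sheet-like network of basement membranes under epithelia and around vessels, type VI chains form beaded microfilaments around cells, and FACIT chains sit on the surface of fibrils. In solid tumours, fibroblasts are the best-known source of the fibrillar chains, while endothelial, mural and carcinoma cells also make basement membrane chains.

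Both groups were C57BL/6J mice, labelled WT, that had Lewis lung carcinoma (LLC) cells, a mouse lung cancer line, placed under the skin at 6 weeks of age, with groups formed 3 days later. The ZQD group (3 libraries) was dosed at 42.67 g/kg, and the control group (4 libraries) is labelled as untreated, with no vehicle named. The protocol dates tissue collection to day 22 after tumour cell injection, whereas the design text gives day 21 of treatment. The protocol counts 8 mice in a group. The labels do not say that each library came from its own mouse, so p-values reflect only how these samples vary. Libraries of one group differed by a chi-square per degree of freedom of 28.1 to 71.0, a measure of spread beyond the sampling of reads. Whether that variation lies between mice or is partly technical was not tested. The labels name a NovaSeq and an MGISEQ sequencer without tying libraries to either, so a difference between the sequencers cannot be told apart from a difference between libraries or groups. Values below are listed as ZQD libraries 1 to 3, then control libraries 1 to 4.

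Libraries held 34765330 to 38673663 reads in ZQD and 32065288 to 49914394 in control. The labels call the samples tumour cells, but the RNA came from whole tumour tissue: the macrophage gene C1qb reached 285 to 344 FPKM in ZQD and 205 to 285 FPKM in control libraries, and of 5 epithelial markers only Krt19 and Cdh1 passed the filter. In such bulk tissue, fewer cells of a type and less RNA per cell cannot be told apart. Reads of mitochondrial genes made up 11.1, 10.7 and 8.78% of the ZQD libraries and 6.47, 7.26, 7.96 and 5.18% of the control libraries, with no overlap. For the collagen share and the 3 collagen genes whose groups did not overlap, values rescaled without those genes are also given.

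The promoters of 4 genes that recur below are shown with 250 bases before and 50 after the annotated start, from RefSeq on GRCm38.p6, whose window table matched 35 of the 43 collagen genes by symbol. Col4a1 and Col4a2, the collagen genes with the highest mean FPKM here, lie head to head on chromosome 8 and are read in opposite directions. Their starts are 21 bases apart, so the windows of Col4a1 (chr8:11312777-11313076, minus strand) and Col4a2 (chr8:11312555-11312854, plus strand) share 78 bases, printed in capitals and reverse-complementary between the 2 lines. Each is written 5′ to 3′ on its own strand.
Col4a1: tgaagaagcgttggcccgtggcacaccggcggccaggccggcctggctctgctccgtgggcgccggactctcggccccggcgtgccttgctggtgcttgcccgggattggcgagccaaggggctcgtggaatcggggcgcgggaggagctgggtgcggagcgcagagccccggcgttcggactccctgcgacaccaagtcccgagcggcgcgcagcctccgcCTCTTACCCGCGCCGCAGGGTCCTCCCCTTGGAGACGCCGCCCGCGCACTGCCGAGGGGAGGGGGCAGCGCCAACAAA
Col4a2: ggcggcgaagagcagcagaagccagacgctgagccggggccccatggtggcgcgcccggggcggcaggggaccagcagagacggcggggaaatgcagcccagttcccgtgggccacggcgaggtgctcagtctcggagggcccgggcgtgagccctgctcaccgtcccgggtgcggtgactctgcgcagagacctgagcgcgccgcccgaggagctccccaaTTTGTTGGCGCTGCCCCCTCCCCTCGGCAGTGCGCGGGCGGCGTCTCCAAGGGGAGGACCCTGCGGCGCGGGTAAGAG

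Col5a1 (chr2:27886175-27886474, plus strand) and Col16a1 (chr4:130047590-130047889, plus strand) are the genes with the smallest p-values among the 24. In these lines the capitals mark matches, on either strand, to the CCAAT box (its letters as named), the GC box (GGGCGG), the TATA box (TATAAA) and the core letters of the hypoxia response element (ACGTG), which also occur within some E-boxes.
Col5a1: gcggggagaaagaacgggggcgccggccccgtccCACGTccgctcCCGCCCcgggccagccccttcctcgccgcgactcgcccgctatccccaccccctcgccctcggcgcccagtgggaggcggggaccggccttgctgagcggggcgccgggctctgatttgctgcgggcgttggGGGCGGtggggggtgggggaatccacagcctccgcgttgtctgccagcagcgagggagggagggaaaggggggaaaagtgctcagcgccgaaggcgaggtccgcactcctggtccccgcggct
Col16a1: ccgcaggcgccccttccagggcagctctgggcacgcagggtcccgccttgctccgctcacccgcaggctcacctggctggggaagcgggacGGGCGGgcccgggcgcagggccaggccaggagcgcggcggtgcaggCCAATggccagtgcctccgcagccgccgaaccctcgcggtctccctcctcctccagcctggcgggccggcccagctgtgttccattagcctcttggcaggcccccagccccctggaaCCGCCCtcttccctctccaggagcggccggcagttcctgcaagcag

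The Col5a1 window held 2 GC boxes and 1 hypoxia response core, and the Col16a1 window 2 GC boxes and 1 CCAAT box. A GC box occurred in 23 of 38 collagen windows (60.5%) and in 35.7% of all 32851 windows of this length. The CCAAT box occurred in 34.2% of collagen and 37.4% of all windows, the TATA box in 13.2% and 13.6%, and the hypoxia response core in 13.2% and 19.6%. G and C made up 75% of the Col5a1 window and 74.3% of the Col16a1 window, and a match is a run of letters, not a shown binding site.

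The basement membrane chains Col4a1 and Col4a2, and Col18a1, the precursor of endostatin, had the highest mean FPKM among the collagen genes. FPKM is scaled per gene length, here the summed length of all exons. That length was 1.03 times the longest coding transcript for Col4a2, 1.25 times for Col18a1 and 1.76 times for Col3a1. Ranks between genes therefore hold for these lengths and may change with others. Averaged over the 7 libraries, Col4a1 (83.2 FPKM), Col4a2 (60.2 FPKM) and Col18a1 (51.9 FPKM) ranked 1, 2 and 3, in the same order by the ZQD mean and by the control mean. Single libraries differed from that order: Col4a1 was the highest collagen gene in 5 of the 7, Col1a1 (85.8 FPKM) in ZQD 2 and Col6a1 (91.4 FPKM) in control 1. The next were Col6a1 (45.1 FPKM), Col3a1 (35.2 FPKM), Col16a1 (33.7 FPKM) and Col5a1 (32.5 FPKM), and the 9 highest genes held 84.8% of the summed collagen level. All 43 genes together made up 0.115, 0.168 and 0.113% of the summed FPKM of the ZQD libraries, and 0.218, 0.159, 0.154 and 0.137% of that of the control libraries. Control 1 was highest and the ranges overlapped, since ZQD 2 lay above 3 of the 4 control libraries.

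The chains varied more between libraries of one group than most genes did. The within-group SD on the log2 scale had a median of 0.571 over the 24 genes, beside 0.173 over all 14838, and all 24 lay above that all-gene median. It was largest for Col1a1 (1.62), Col1a2 (1.43) and Col3a1 (0.970), and smallest for Col24a1 (0.245), Col8a1 (0.248) and Col16a1 (0.249). The extremes were spread unevenly over the libraries. ZQD 2 was the highest library for 7 of the 24 genes and control 1 for 8, while control 4 was the lowest for 8. ZQD 1 was the lowest for 5 genes, ZQD 3 for 5 and ZQD 2 for 4. The same counts over all genes were not made.

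**Figure D1:**
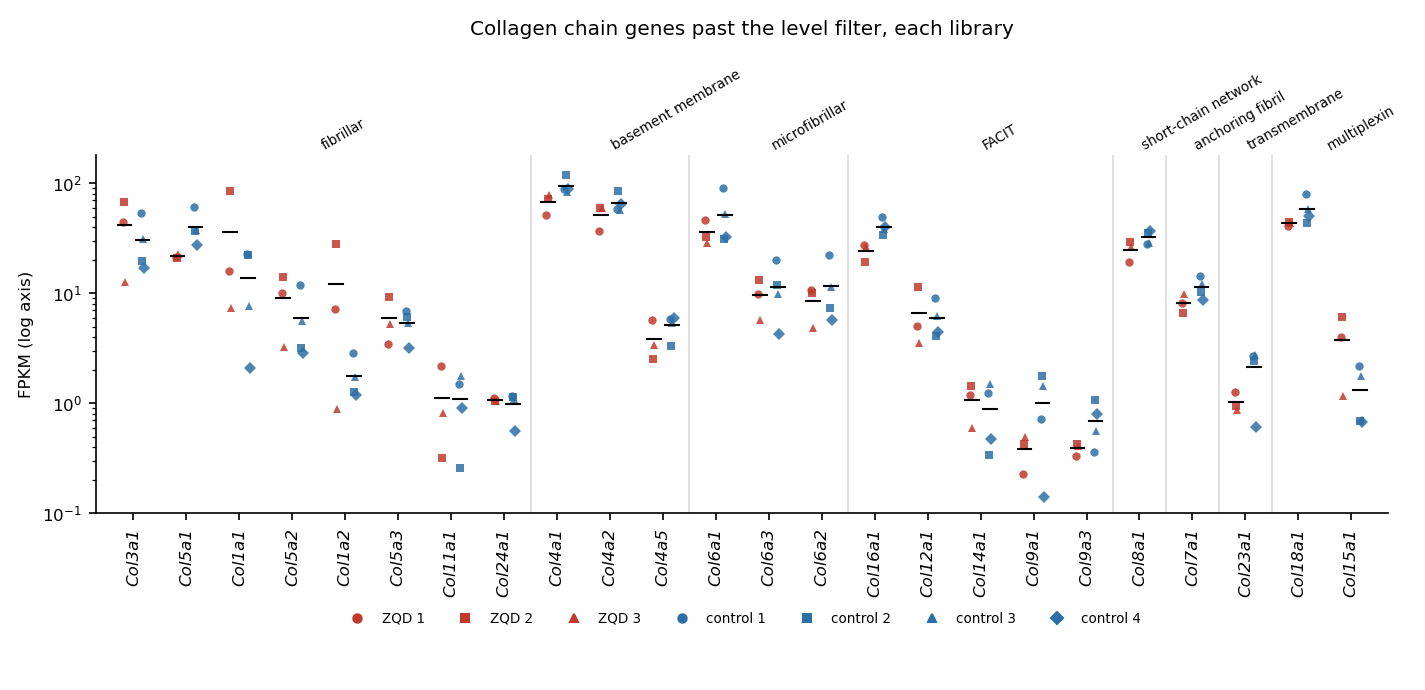
Level of each collagen gene past the filter in every library (FPKM, log axis), grouped by structural class, with ZQD libraries left of control libraries and short lines for group means. Col1a1 and Col1a2 spread most over the 7 libraries, from 2.08 to 85.8 and from 0.882 to 28.3 FPKM, whereas the Col16a1 points of the groups do not overlap.

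Set against control tumours, ZQD tumours had lower levels of the FACIT chain Col16a1, the fibrillar chain Col5a1 and the basement membrane chain Col4a1 in every library, but no collagen gene passed the test across all genes. Limma on log2(FPKM + 0.5), two-sided with Benjamini-Hochberg adjustment, called 0 of 24 collagen genes at an adjusted p under 0.05, and 0% of all genes, with 0.154 the smallest adjusted p of a collagen gene. At an unadjusted p under 0.05 there were 6 collagen genes (25%, beside 15.5% of all genes), 5 lower in ZQD (10.3% of all genes were) and 1 higher (5.21%). The split was 6 lower and 0 higher on the TPM scale, where 19.3% of all genes were lower and 2.54% higher. It was 3 lower and 1 higher with median-of-ratios scaling, where 7.29% of all genes were lower and 7.39% higher. On rebuilt read counts, edgeR called 0 at an adjusted p under 0.05 (0% of all genes) and 7 at an unadjusted p under 0.05 (beside 15% of all genes). DESeq2 called 2, Col16a1 (adjusted p = 0.00217) and Col5a1 (adjusted p = 0.00581), beside 4.13% of all genes. Counts of 14832 genes were also simulated with the spread that edgeR estimated from these data, a setting close to edgeR's own model. On these counts DESeq2 called 40 genes that had not been changed, against 9 by limma and 13 by edgeR. Calls made by DESeq2 alone, here and below, are to be read with that in mind.

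For 3 of the 24 genes the groups did not overlap (12.5%, beside 15.2% of all genes), and all 3 were lower in ZQD (9.84% of all genes) and 0 higher (5.35% of all genes). The log2 fold change, ZQD over control, was below 0 for 15 of the 24 genes (62.5%, beside 58.2% of all genes) and above 0 for 9. Its median was -0.34 over the collagen genes and -0.043 over all genes. On the TPM scale, which moved the all-gene median to -0.15, the collagen median was -0.45. Without control 1 it was -0.037, and without ZQD 3 -0.13. The shares below 0 and without overlap lay near those of all genes. Without ZQD 1, 3 genes were lower at an unadjusted p under 0.05, and Col15a1 lost that threshold without ZQD 1, ZQD 2, control 2 or control 4.

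**Figure D2:**
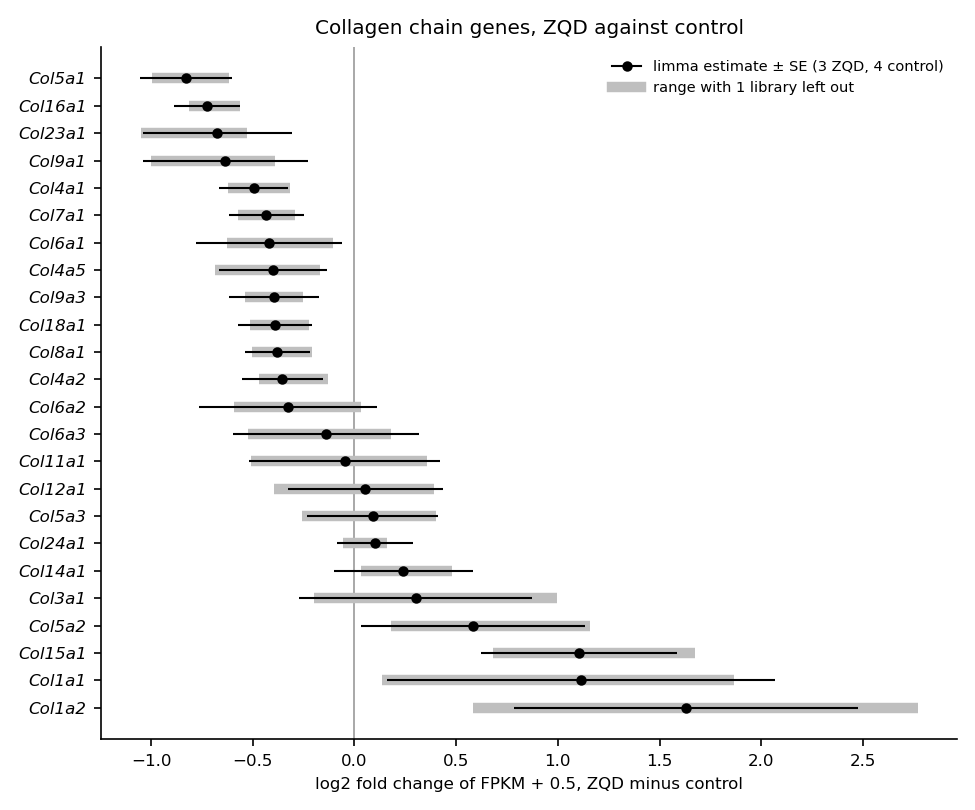
Log2 fold change of each tested collagen gene (x axis, log2 of FPKM + 0.5, ZQD over control) as points with the limma SE as black lines (3 ZQD and 4 control libraries) and the range with 1 library left out at a time as grey bars. The grey bars of Col5a1 and Col16a1 stay below -0.5, and the Col1a2 bar, from 0.58 to 2.77, is the widest.

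Among the fibrillar chains, Col5a1 was lower in ZQD tumours while the type I and III chains had no common direction across ZQD libraries. Col5a1 (ENSMUSG00000026837; chromosome 2, 27886425 to 28039514, plus strand of GRCm38 in GENCODE M21) encodes the main chain of type V collagen, which starts and limits the width of type I fibrils. It had 21.4, 20.9 and 22.8 FPKM in ZQD libraries, against 60.8, 36.8, 37.3 and 27.3 FPKM in control libraries. The ZQD libraries lay within a narrow band below all 4 controls, of which control 1 was the highest. For Col5a1 the log2 fold change was -0.83 ± 0.23 (SE; adjusted p = 0.186 in limma), -0.61 without control 1 and -0.77 with mitochondrial genes left out of the scaling. Exons of opposite-strand genes cover 2.5% of its exons, and no source used here says whether reads were counted by strand.

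Col1a1 and Col1a2 encode the chains of type I collagen, the main fibril of skin, bone and scar, and Col3a1 the chain of type III collagen, common in loose tissue and vessel walls. Col1a1 had 15.9, 85.8 and 7.32 FPKM in ZQD libraries, against 22.8, 22.4, 7.63 and 2.08 FPKM in control libraries. Col1a2 had 7.17, 28.3 and 0.882 FPKM in ZQD libraries and 2.86, 1.27, 1.73 and 1.19 FPKM in control libraries. Both were highest in ZQD 2, and the lowest Col1a2 level of all was in ZQD 3, so the groups overlapped. Col1a1 and Col1a2 had log2 fold changes of 1.11 ± 0.95 (SE, adjusted p = 0.601 in limma) and 1.63 ± 0.85 (SE, adjusted p = 0.392 in limma), which were 0.14 and 0.58 without ZQD 2. On rebuilt reads edgeR gave 1.47 for Col1a1 (edgeR adjusted p = 0.461) and 2.84 for Col1a2 (edgeR adjusted p = 0.198). DESeq2 gave 2.85 for Col1a2 (DESeq2 adjusted p = 0.0887). Col3a1 had 44.5, 68.1 and 12.6 FPKM in ZQD libraries, against 53.3, 19.7, 31.3 and 17.0 FPKM in control libraries. Its ZQD values spanned more than the control range on both sides, and its log2 fold change of 0.30 ± 0.57 (SE; adjusted p = 0.834 in limma) was -0.20 without ZQD 2.

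The other fibrillar chains showed no separation of the groups. Col5a2, the partner of Col5a1, averaged 9.10 ± 5.43 FPKM in ZQD tumours and 5.92 ± 4.25 FPKM in control tumours (SD, n = 3 and 4 libraries, log2 fold change 0.58, 0.18 without ZQD 2 and 0.97 without control 1). Col5a3, a further type V chain, averaged 6.00 ± 2.98 FPKM in ZQD tumours and 5.38 ± 1.57 FPKM in control tumours (log2 fold change 0.089, -0.26 to 0.40 with 1 library left out and -0.0079 on the TPM scale). Col11a1, a type XI chain best known from cartilage fibrils and from activated fibroblasts of human carcinomas, averaged 1.12 ± 0.977 FPKM in ZQD tumours and 1.11 ± 0.673 FPKM in control tumours (log2 fold change -0.048, -0.51 to 0.36 with 1 library left out and 0.054 with edgeR). Col24a1, a fibrillar chain described in bone and cornea, averaged 1.08 ± 0.0432 FPKM in ZQD tumours and 0.993 ± 0.290 FPKM in control tumours (log2 fold change 0.10, -0.056 to 0.16 with 1 library left out). None of these 4 had an adjusted p below 0.643 in limma.

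Of the paired basement membrane chains, Col4a1 was lower in every ZQD library than in any control, and Col4a2 overlapped between groups. They assemble into the trimer that underlies nearly every basement membrane. Col4a1 (ENSMUSG00000031502; chromosome 8, 11198423 to 11312826, minus strand of GRCm38 in GENCODE M21) had 51.8, 71.9 and 79.2 FPKM in ZQD libraries, against 88.5, 119, 84.2 and 88.3 FPKM in control libraries. All 3 ZQD libraries lay below all 4 controls, but ZQD 3 and control 3 were the closest pair, and control 2 stood above the rest. For Col4a1 the log2 fold change was -0.49 ± 0.17 (SE; adjusted p = 0.247 in limma), -0.31 without ZQD 1 and -0.44 with mitochondrial genes left out of the scaling. Col4a2 had 37.3, 59.3 and 59.9 FPKM in ZQD libraries, against 57.98, 84.95, 57.2 and 64.5 FPKM in control libraries. ZQD 1 was the lowest, while ZQD 2 and ZQD 3 lay inside the control range. For Col4a2 the log2 fold change was -0.35 ± 0.20 (SE; adjusted p = 0.422 in limma), and -0.13 without ZQD 1.

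Col4a5, a chain of the specialised network of kidney and other epithelia, averaged 3.88 ± 1.65 FPKM in ZQD tumours and 5.14 ± 1.23 FPKM in control tumours (log2 fold change -0.40, adjusted p = 0.496 in limma), and the log2 fold change was -0.17 without ZQD 2 and -0.69 without ZQD 1. Its partners in that network stayed under the filter: Col4a4 reached at most 0.262 FPKM and Col4a3 at most 0.0130 FPKM. Col4a6, the last type IV chain, had 0 reads in each ZQD library and 2 to 4 reads in control libraries, which is too few for a comparison. Endothelial markers (6 genes, 5 tested) had a summed level of 16.8, 33.7 and 25.3 FPKM in ZQD and 16.7, 21.7, 23.9 and 27.2 FPKM in control libraries. All 5 had log2 fold changes above 0, with a median of 0.14, which was -0.065 without ZQD 2.

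The 3 microfibrillar chains past the filter were all highest in control 1, and the groups overlapped. Col6a1, Col6a2 and Col6a3 make type VI collagen, the beaded filament that links cells to the matrix around them. Col6a1 had 46.9, 32.3 and 28.6 FPKM in ZQD libraries, against 91.4, 31.2, 52.9 and 32.7 FPKM in control libraries. Control 1 was the highest by far and control 2 lay below 2 of the ZQD libraries. For Col6a1 the log2 fold change was -0.42 ± 0.36 (SE; adjusted p = 0.6004 in limma), and -0.10 without control 1. Col6a3 had 9.81, 13.3 and 5.71 FPKM in ZQD libraries, against 20.04, 11.9, 9.83 and 4.26 FPKM in control libraries. Control 4 was the lowest and control 1 the highest, with all ZQD libraries between them. For Col6a3 the log2 fold change was -0.14 ± 0.46 (SE; adjusted p = 0.910 in limma), and 0.18 without control 1. Col6a2 averaged 8.52 ± 3.21 FPKM in ZQD tumours and 11.7 ± 7.40 FPKM in control tumours (log2 fold change -0.33, and 0.030 without control 1). The remaining members, Col6a4, Col6a5 and Col6a6, stayed at or below 0.0516 FPKM.

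Col16a1 was the collagen gene with the smallest p-value. Col16a1 (ENSMUSG00000040690; chromosome 4, 130047840 to 130099283, plus strand of GRCm38 in GENCODE M21) encodes a FACIT chain found near cells in skin, vessels and smooth muscle and known to bind integrins. It had 27.4, 19.2 and 26.7 FPKM in ZQD libraries, against 49.4, 33.7, 38.8 and 40.5 FPKM in control libraries. Every ZQD library lay below every control, with ZQD 2 the lowest and control 1 the highest. For Col16a1 the log2 fold change was -0.72 ± 0.16 (SE; adjusted p = 0.154 in limma), and it kept to between -0.81 and -0.56 with each library left out in turn. Its unadjusted p was 0.00171, and its log2 fold change was -0.67 with mitochondrial genes left out of the scaling.

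For the other FACIT chains past the filter the groups overlapped. Col12a1, a FACIT chain of dense connective tissue, had 5.02, 11.5 and 3.53 FPKM in ZQD libraries, against 9.09, 4.08, 6.26 and 4.499 FPKM in control libraries. ZQD 2 was highest and ZQD 3 lowest, and the log2 fold change of 0.054 ± 0.38 (SE; adjusted p = 0.960 in limma) was -0.40 without ZQD 2 and -0.049 on the TPM scale. Col14a1, a related chain that regulates fibril assembly, averaged 1.07 ± 0.428 FPKM in ZQD tumours and 0.886 ± 0.565 FPKM in control tumours (log2 fold change 0.24, 0.032 to 0.48 with 1 library left out). The type IX chains, best known from cartilage, were near the filter. Col9a1 averaged 0.384 ± 0.137 FPKM in ZQD tumours and 1.02 ± 0.732 FPKM in control tumours (log2 fold change -0.64, -0.999 to -0.39 with 1 library left out), and Col9a3 averaged 0.390 ± 0.0523 FPKM in ZQD tumours and 0.697 ± 0.304 FPKM in control tumours (log2 fold change -0.39, -0.54 to -0.25 with 1 library left out). On rebuilt reads, without the constant of 0.5 FPKM, edgeR gave log2 fold changes of -1.36 for Col9a1 and -0.79 for Col9a3, beside -0.69 for Col16a1. Exons of the opposite-strand gene Tcfl5 cover 6.07% of those of Col9a3. Of the chondrocyte markers, Acan, Matn1 and Hapln1 stayed under 0.1 FPKM in every library. Sox9, the only tested one, had 1.91 to 5.52 FPKM in ZQD and 4.35 to 5.10 FPKM in control libraries. It made up most of the chondrocyte marker sum given below.

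Col8a1 and Col7a1 were lower in ZQD at an unadjusted p under 0.05, with overlapping groups. Col8a1 encodes a short chain of the hexagonal networks of vessel walls and cornea. It had 19.4, 29.4 and 26.3 FPKM in ZQD libraries, against 28.1, 35.5, 28.8 and 37.1 FPKM in control libraries. ZQD 1 was the lowest and only ZQD 2 reached above the lowest controls. For Col8a1 the log2 fold change was -0.38 ± 0.16 (SE; adjusted p = 0.311 in limma), with an unadjusted p of 0.0438, and -0.21 without ZQD 1. Col7a1, the chain of the anchoring fibrils under skin epithelium, had 8.19, 6.60 and 9.97 FPKM in ZQD libraries, against 14.4, 10.3, 12.1 and 8.66 FPKM in control libraries. Control 4 lay among the ZQD values and the other controls lay above all 3. For Col7a1 the log2 fold change was -0.43 ± 0.19 (SE; adjusted p = 0.315 in limma), with an unadjusted p of 0.0466.

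The multiplexins, whose C-terminal ends release endostatin-like fragments, had log2 fold changes of opposite sign. Col18a1 had 41.2, 44.7 and 44.1 FPKM in ZQD libraries, against 80.2, 43.8, 58.5 and 50.9 FPKM in control libraries. The ZQD libraries were close to each other, and control 2 lay among them. For Col18a1 the log2 fold change was -0.39 ± 0.18 (SE; adjusted p = 0.346 in limma), and -0.22 without control 1. Col15a1, found in the basement membrane zone of vessels and muscle, had 4.00, 6.10 and 1.17 FPKM in ZQD libraries, against 2.19, 0.693, 1.76 and 0.672 FPKM in control libraries. ZQD 1 and ZQD 2 lay above every control, but ZQD 3 lay among the controls. For Col15a1 the log2 fold change was 1.11 ± 0.48 (SE; adjusted p = 0.321 in limma), and between 0.68 without ZQD 2 and 1.67 without ZQD 3. It was the only tested collagen gene higher in ZQD at an unadjusted p under 0.05 in limma (0.0496).

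Col23a1, a transmembrane collagen, had 1.26, 0.938 and 0.873 FPKM in ZQD libraries, against 2.71, 2.44, 2.77 and 0.606 FPKM in control libraries. Control 4 was the lowest of all 7 and the other controls the highest. For Col23a1 the log2 fold change was -0.67 ± 0.37 (SE; adjusted p = 0.407 in limma), and -1.05 without control 4. The next transmembrane chain by level, Col13a1, stayed under the filter, with 0.0463, 0.353 and 0.0676 FPKM in ZQD libraries and 0.0599, 0.0494, 0.0932 and 0.0488 FPKM in control libraries. Col10a1, the short chain of growth plate cartilage, had at most 6 reads in any library.

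The summed levels of the basement membrane and FACIT classes were lower in every ZQD library than in any control, and the fibrillar sum was not. The basement membrane sum was 94.9, 134 and 143 FPKM in ZQD libraries, against 153, 207, 147 and 159 FPKM in control libraries. Its groups did not overlap, though ZQD 3 and control 3 were close. Col4a1 and Col4a2 made up most of this sum, and Col4a2 and Col4a5 each overlapped between groups. The FACIT sum was 34.3, 33.2 and 31.9 FPKM in ZQD libraries, against 61.0, 41.1, 48.7 and 46.5 FPKM in control libraries, again with no overlap. Col16a1 made up most of it, and Col12a1 and Col14a1 had log2 fold changes above 0 (0.054 and 0.24). The fibrillar sum was 106, 228 and 54.4 FPKM in ZQD libraries, against 162, 91.4, 92.3 and 55.3 FPKM in control libraries, with the highest and the lowest value both in ZQD. The microfibrillar sum was 67.3, 55.8 and 39.2 FPKM in ZQD libraries, against 134, 50.5, 74.2 and 42.7 FPKM in control libraries, and overlapped widely.

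Fibrillar chains made up 28.2, 42.3 and 15.5% of the collagen sum in ZQD libraries and 25.4, 18.9, 19.8 and 13.8% in control libraries. Basement membrane chains held 25.1, 24.8 and 40.7% in ZQD and 23.95, 42.9, 31.5 and 39.6% in control libraries, less than the fibrillar chains in ZQD 1, ZQD 2 and control 1. Col1a1, Col1a2 and Col3a1 alone summed to 67.5, 182 and 20.8 FPKM in ZQD and 79.0, 43.4, 40.7 and 20.2 FPKM in control libraries. With these 3 genes left out, a choice made after seeing the data, the collagen share of all FPKM was 0.0948, 0.111 and 0.106% in ZQD and 0.191, 0.145, 0.140 and 0.130% in control libraries, and the groups did not overlap. The full share averaged 0.132 ± 0.0312% in ZQD and 0.167 ± 0.0350% in control libraries (SD, n = 3 and 4), a difference close to 1 SD. With mitochondrial genes left out of the total it averaged 0.178 ± 0.0448% in ZQD and 0.203 ± 0.0435% in control libraries, which is within 1 SD.

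**Figure D3:**
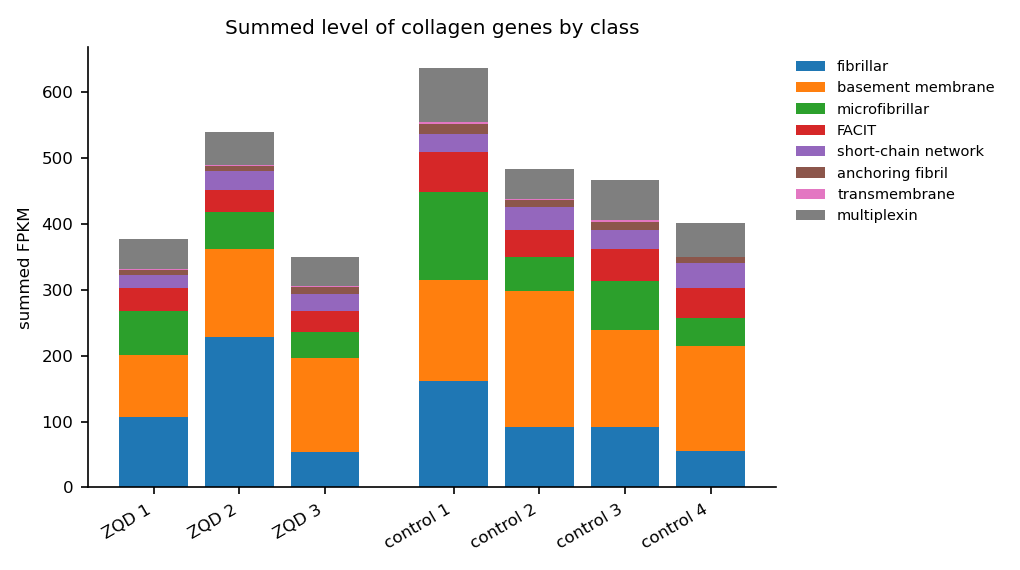
Summed FPKM of the collagen classes in each library (y axis, stacked bars from 0, ZQD libraries left of control libraries). Fibrillar chains take 228 FPKM of the ZQD 2 bar and 54.4 FPKM of the ZQD 3 bar, while basement membrane chains stay below 147 FPKM in all ZQD libraries.

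Of the 6 chain pairs examined, the type IV pair had the smallest fold range of its RNA ratio over the 7 libraries. The Col4a1 to Col4a2 ratio was 1.39, 1.21 and 1.32 in ZQD libraries, against 1.53, 1.40, 1.47 and 1.37 in control libraries, so the highest was 1.26 times the lowest. The groups overlapped. The Col1a1 to Col1a2 ratio, by contrast, was 2.21, 3.03 and 8.30 in ZQD libraries, against 7.96, 17.7, 4.42 and 1.75 in control libraries. Its highest value, in control 2, was 10.1 times its lowest, in control 4, and the groups overlapped.

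The Col1a2 level rests on a gene length of 12426 bases in the files, 2.32 times its longest coding transcript of 5348 bases, so its FPKM is lower than that transcript alone would give. With the longest coding transcripts as lengths, chosen after seeing the data, the Col1a1 to Col1a2 ratio was 1.05, 1.44 and 3.96 in ZQD libraries and 3.79, 8.41, 2.11 and 0.834 in control libraries. Type I collagen is a trimer of a pair of Col1a1 chains with a single Col1a2 chain. The ratios between libraries are the same under either length.

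Type V chains spread as well: Col5a1 to Col5a2 was 2.13, 1.49 and 6.99 in ZQD libraries, against 5.06, 11.5, 6.65 and 9.58 in control libraries, and ZQD 1 and ZQD 2 were the lowest. Col3a1 to Col1a1 was 2.81, 0.795 and 1.72 in ZQD libraries, against 2.34, 0.877, 4.10 and 8.13 in control libraries. It was below 1 in ZQD 2 and control 2, but 1.27 and 1.40 there with the lengths of the longest coding transcripts. For type VI, Col6a1 to Col6a2 was 4.40, 3.20 and 5.93 in ZQD libraries and 4.12, 4.20, 4.62 and 5.73 in control libraries. Col6a3 to Col6a1 was 0.209, 0.412 and 0.200 in ZQD libraries and 0.219, 0.380, 0.186 and 0.130 in control libraries. All of these overlapped between groups.

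**Figure D4:**
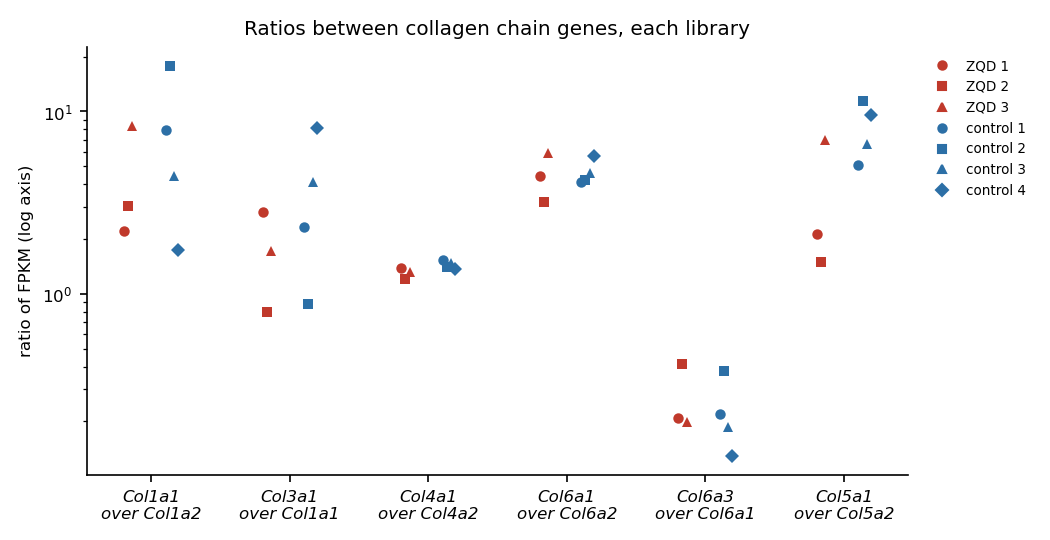
Ratio of the FPKM of paired collagen chain genes in each library (y axis, log scale), ZQD libraries left of control libraries. In the Col3a1 to Col1a1 pair the chains belong to different collagen types. Col4a1 to Col4a2 stays between 1.21 and 1.53, whereas Col1a1 to Col1a2 runs from 1.75 to 17.7.

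The 19 collagen genes under the filter reached at most 0.596 FPKM, and 10 of them had their highest level in ZQD 2. The 7 that reached 0.1 FPKM anywhere had as their highest levels: Col27a1 0.596 FPKM in ZQD 2, Col17a1 0.508 FPKM in ZQD 2, Col13a1 0.353 FPKM in ZQD 2, Col28a1 0.282 FPKM in ZQD 1, Col4a4 0.262 FPKM in control 2, Col11a2 0.236 FPKM in control 2 and Col20a1 0.200 FPKM in control 3. The other 12, Col25a1, Col6a4, Col10a1, Col6a5, Col8a2, Col19a1, Col9a2, Col2a1, Col22a1, Col6a6, Col4a3 and Col4a6, stayed below that in every library. Col17a1, a hemidesmosome collagen of basal keratinocytes, had 118 reads in ZQD 2 and 0 to 8 reads in the other 6 libraries. The keratinocyte markers (5 genes, 1 tested) also had their highest sum in ZQD 2. Their summed level was 0.982, 8.59 and 1.70 FPKM in ZQD libraries and 0.969, 2.74, 1.03 and 0.544 FPKM in control libraries. The tested marker, Trp63, was instead highest in control 2 (2.38 FPKM), with 1.10 FPKM in ZQD 2 and 1.08 FPKM in ZQD 3. The part of keratinocytes in the Col17a1 value was not tested. Col28a1, a collagen known from peripheral nerve, had 51, 32 and 0 reads in ZQD libraries and 3, 2, 2 and 6 reads in control libraries. The Schwann cell markers (5 genes, 3 tested) had summed levels of 1.33 to 2.59 FPKM in ZQD and 1.13 to 7.41 FPKM in control libraries, with Sox10 under 0.1 FPKM throughout.

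The enzymes that modify and fold procollagen in the endoplasmic reticulum had mostly negative log2 fold changes. Of 19 such genes 18 were tested, and 15 were lower and 3 higher in ZQD, with a median of -0.21 beside -0.043 for all genes. Among all genes 58.2% were lower, the share to set beside such counts in this and the following lists. Limma called 0 at an adjusted p under 0.05 and 6 at an unadjusted p under 0.05, all lower in ZQD (beside 10.3% of all genes), and DESeq2 called 5 (beside 4.13%). P4ha2, a catalytic subunit of prolyl 4-hydroxylase, whose hydroxyprolines stabilise the triple helix, had 18.7, 18.3 and 20.6 FPKM in ZQD libraries, against 29.9, 29.0, 30.3 and 29.99 FPKM in control libraries. The groups did not overlap and each was tight, with a log2 fold change of -0.62 (limma adjusted p = 0.113). P4ha1, the other main catalytic subunit, had 45.4, 48.7 and 57.3 FPKM in ZQD libraries, against 75.2, 79.2, 78.2 and 92.0 FPKM in control libraries (log2 fold change -0.68, limma adjusted p = 0.131). Serpinh1, the collagen chaperone HSP47, had 243, 169 and 207 FPKM in ZQD libraries, against 304, 294, 263 and 281 FPKM in control libraries. All 3 genes were lower in every ZQD library than in any control, as 9.84% of all genes were. P4ha2 and P4ha1 were named for the smallest p-values of the list, so their separation adds no evidence of its own. For Serpinh1 the log2 fold change was -0.48 (limma adjusted p = 0.185). P4hb, the abundant shared subunit, was closer between groups (log2 fold change -0.13).

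Export and cleavage genes (12, 9 tested) had 4 members higher and 5 lower in ZQD, with 0 adjusted calls by limma or DESeq2 and 1 unadjusted call, Adamts14 (lower, beside 10.3% of all genes). Adamts14, a procollagen N-proteinase, had 17.5, 16.5 and 18.8 FPKM in ZQD libraries, against 28.4, 20.7, 22.4 and 21.2 FPKM in control libraries. Its groups did not overlap (log2 fold change -0.38, limma adjusted p = 0.216). Among all genes 9.84% were lower without overlap, and Adamts14 was named for the smallest p-value of the list. Sec24d, of the coat that exports procollagen, had a log2 fold change of -0.32, Pcolce, the enhancer of the C-proteinase, -0.30, and Mia3, the procollagen export receptor, 0.017, which was -0.085 on the TPM scale. Cross-linking enzymes (5, all tested) had 2 higher and 3 lower, with 0 adjusted calls by limma or DESeq2 and 0 unadjusted calls in limma. Lox, which oxidises lysines to cross-link fibrils, had 5.15, 14.1 and 0.126 FPKM in ZQD libraries, against 1.04, 0.431, 0.822 and 0.340 FPKM in control libraries. As for Col1a2, its highest value was in ZQD 2 and its lowest in ZQD 3 (log2 fold change 1.73, limma adjusted p = 0.390). Loxl4 and Loxl3 had log2 fold changes of -0.19 and -0.22.

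Fibril assembly partners (11, 9 tested) had 6 higher and 3 lower in ZQD, with 0 adjusted calls by limma, 1 unadjusted call and 1 DESeq2 call, in both cases Fn1 (beside 10.3% of all genes lower at an unadjusted p and 4.13% called by DESeq2). Fn1, fibronectin, which guides fibril assembly at the cell surface, had 419, 405 and 491 FPKM in ZQD libraries, against 887, 539, 707 and 560.1 FPKM in control libraries. Its groups did not overlap, with a log2 fold change of -0.59 (limma adjusted p = 0.210). Among all genes 9.84% were lower without overlap. Fn1 had the smallest p-value of its list, so its separation adds no evidence of its own. Bgn, a small proteoglycan of fibrils, and Sparc, a collagen-binding glycoprotein, had log2 fold changes of 0.86 and -0.0057, the last being 0.042 with TMM scaling.

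Collagen receptors (10, 8 tested) had 3 higher and 5 lower in ZQD, with 0 adjusted calls by limma and 1 unadjusted call (higher, beside 5.21% of all genes) and 1 DESeq2 call (beside 4.13%), in both cases Lair1. Lair1, an inhibitory collagen receptor of leukocytes, had 7.97, 6.42 and 7.46 FPKM in ZQD libraries, against 4.61, 4.58, 6.17 and 3.89 FPKM in control libraries. Its groups did not overlap (log2 fold change 0.56, limma adjusted p = 0.179). Among all genes 5.35% were higher without overlap, and Lair1 was named for the smallest p-value of the list. Macrophage markers (6, all tested) were also higher in ZQD in 5 of 6 cases, 3 at an unadjusted p under 0.05 in limma (beside 5.21% of all genes). At an adjusted p under 0.05 limma called 0 of them and DESeq2 1 (beside 4.13%). They had summed levels of 499 to 569.7 FPKM in ZQD and 395 to 507 FPKM in control libraries, and their part in the Lair1 value was not tested. Itgb1, the shared chain of the collagen-binding integrins, and Ddr2, a collagen receptor kinase, had log2 fold changes of -0.16 and -0.17. Breakdown genes (10, 7 tested) had 1 higher and 6 lower, where 58.2% of all genes were lower. There were 0 adjusted calls by limma or DESeq2 and 1 unadjusted call (lower, beside 10.3% of all genes). It was the membrane collagenase Mmp14 (log2 fold change -0.46, limma adjusted p = 0.267). Mmp2, a gelatinase, and Ctsk, a collagen-cleaving cathepsin, had log2 fold changes of -0.52 and -0.14.

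Genes of the TGF-beta pathway, the best-known inducer of fibrillar collagens, had 8 of 10 members lower and 2 higher in ZQD, all tested. Among all genes 58.2% were lower. The median of the list was -0.25, beside -0.043 for all genes. Limma and DESeq2 called 0 at an adjusted p under 0.05, and limma 3 at an unadjusted p under 0.05, all lower (beside 10.3% of all genes). Smad7, the inhibitory SMAD, had 4.96, 6.57 and 6.03 FPKM in ZQD libraries, against 8.34, 7.09, 7.20 and 8.99 FPKM in control libraries. Ltbp1, which stores latent TGF-beta in the matrix, had 36.5, 40.7 and 36.6 FPKM in ZQD libraries, against 59.1, 41.7, 44.0 and 57.9 FPKM in control libraries. Neither gene's groups overlapped (log2 fold changes -0.41 and -0.40, limma adjusted p = 0.212 and 0.251). Among all genes 9.84% were lower without overlap, and both genes were named for the smallest p-values of the list. For the receptor Tgfbr2 the log2 fold change was -0.20.

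Markers of cells that make collagen moved with some of these values from library to library. Fibroblast markers (9, 7 tested) summed to 53.4, 86.9 and 42.4 FPKM in ZQD libraries and 75.3, 41.4, 52.3 and 29.9 FPKM in control libraries, and 6 of the 7 had log2 fold changes above 0. Their sum was highest in ZQD 2, where Col1a1, Col1a2 and Col3a1 were highest, and second highest in control 1. Of the 7, limma and DESeq2 called 0 at an adjusted p under 0.05. At an unadjusted p under 0.05 limma called 1, Thy1 (higher, beside 5.21% of all genes). Thy1 had 18.2, 26.2 and 16.51 FPKM in ZQD and 16.50, 15.9, 14.2 and 11.3 FPKM in control libraries. Its groups did not overlap, though ZQD 3 and control 1 were nearly equal. Among all genes 5.35% were higher without overlap. Dcn, the fibril-binding proteoglycan decorin, overlapped, with 9.09, 16.4 and 4.37 FPKM in ZQD and 23.7, 3.47, 13.2 and 1.72 FPKM in control libraries. Mural cell markers (8, 5 tested) summed to 20.7, 32.9 and 14.3 FPKM in ZQD and 33.6, 16.8, 19.4 and 7.86 FPKM in control libraries, also highest in control 1 and ZQD 2. The part of these cells in the collagen values was not tested.

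Other tissue lists gave the following summed levels. Skeletal muscle markers (6, 3 tested) summed to 2.69 to 8.83 FPKM in ZQD and 2.07 to 27.2 FPKM in control libraries, adipocyte markers (5, 1 tested) to 2.37 to 44.5 FPKM in ZQD and 2.14 to 5.53 FPKM in control libraries and chondrocyte markers (5 in the files, 1 tested) to 2.08 to 5.61 FPKM in ZQD and 4.40 to 5.23 FPKM in control libraries. The adipocyte sum was high in ZQD 1 (44.5 FPKM) and the muscle sum in control 1 (27.2 FPKM), the library with the highest Col6a1, Col6a2 and Col6a3. Neutrophil markers (5, 4 tested) summed to 17.8 to 69.1 FPKM in ZQD and 11.6 to 28.8 FPKM in control libraries and erythroid markers (5, all tested) to 47.0 to 336 FPKM in ZQD and 54.5 to 229 FPKM in control libraries. Epithelial markers (5, 2 tested) summed to 7.21 to 21.0 FPKM in ZQD and 9.07 to 33.2 FPKM in control libraries. All 13 mitochondrial genes had log2 fold changes above 0, 8 of them at an unadjusted p under 0.05 in limma (beside 5.21% of all genes), and DESeq2 called 7 of the 13 (beside 4.13%).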

How the data were processed

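The 7 mRNA libraries of tumour tissue were used. The authors deposited FPKM for all 7 and raw read counts per gene for controls 1 and 2. Per the submitters' processing notes the tools included HISAT2, featureCounts, Subread and DESeq2; no source used here gives their versions or roles, the build or the annotation. Gene lengths rebuilt from the 2 count files equalled GENCODE M21 summed exon lengths for 98.2% of 27021 genes, and turned 100% of the deposited FPKM of genes with a length into whole reads (tolerance 0.05 reads). FPKM also depend on that summed length where short isoforms dominate. Groups came from titles and the treatment label. The main test was limma 3.58.1 with trend on log2(FPKM + 0.5), over genes at 0.5 FPKM or more in at least 3 libraries, two-sided, Benjamini-Hochberg adjusted over all 14838 genes. Fold changes on this scale understate changes of low genes. edgeR 4.0.16 (quasi-likelihood) and DESeq2 1.42.0 ran on the rebuilt reads as alternatives. On simulated counts of this comparison (14832 genes) limma recovered 68% of genes changed by 1 and 100% of those changed by 2 log2 units. For changes of 1 log2 unit, edgeR recovered 76% and DESeq2 89%. The changed genes were drawn from all genes with many reads, and the spread of the counts was edgeR's estimate from these data. Collagen genes varied more than most genes (median within-group SD 0.571 beside 0.173), so these shares cannot be carried over to them. All tested collagen genes were named, with every library's value for the 2 most abundant of each class and those with an unadjusted p under 0.05 or groups that do not overlap; Col1a1 and Col1a2 were added for their chain ratio. From each pathway list the 2 smallest p-values and the 2 most abundant were named. Members, lists and classes were chosen with earlier results of these data known, so no list is independent evidence. Promoters came from RefSeq on GRCm38.p6. No list, class sum or ratio was given a p-value. Precision is limited by 32065288 to 49914394 reads and 3 and 4 libraries.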

Additional observations from a re-analysis of the deposited data

Results flagged for a closer look

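Among 76 values examined in the control group, the only group large enough for this, 6 had one library whose gap to the nearest other was a larger share of the group's range than Dixon's 95% critical value. Chance gives this in about 5% of groups. Col4a1 had 119 FPKM in control 2, with the next control at 88.5 FPKM. Col24a1 had 0.560 FPKM in control 4 and at least 1.10 FPKM in the other controls. Col23a1 had 0.606 FPKM in control 4 and at least 2.44 FPKM in the others. Multiplexins made up 9.22% of the collagen sum in control 2 and at least 12.8% in the others. Mia3 had 29.6 FPKM in control 4, below the next value of 36.2 FPKM. Mmp2 had 46.6 FPKM in control 1, above the next value of 25.2 FPKM. The causes were not tested.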

How the results depend on the processing

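Of the 24 tested collagen genes 17 kept the sign of their log2 fold change under every alternative, among them Col16a1, Col5a1, Col4a1, Col1a1 and Col1a2, and 7 did not. Collagen genes past an adjusted p of 0.05 numbered 0 under every alternative but DESeq2 (2), which also called 5 modification, 1 assembly partner and 1 receptor gene. Collagen genes lower at an unadjusted p under 0.05 (5 by limma) were 3 without a level filter, with median-of-ratios or TMM scaling, without mitochondrial genes or without the trend, 8 with the replicate block, 11 by edgeR with no filter and 3.00 to 6.00 with 1 library left out. Those higher (1 by limma) were 0 with a pseudocount of 0.1, no filter, the TPM scale, no trend, array weights, the replicate block or without ZQD 2 and control 1 together (chosen after seeing the data), 2 by edgeR with either scaling and by DESeq2, 5 by edgeR with no filter, and 0 to 2.00 with 1 library left out. The block drops control 4, and the numbers do not pair the samples: same-numbered libraries' deviations correlated at 0.25, 0.10 and -0.15, and not every library correlated best with its own number. Under it the log2 fold changes were -0.056 for Col24a1, -0.12 for Col5a3, -0.050 for Col12a1 and -0.058 for Mia3. On the TPM scale they were -0.0079 for Col5a3, -0.049 for Col12a1 and -0.085 for Mia3, and with array weights -0.081 for Col12a1. Without ZQD 2 and control 1 they were -0.13 for Col5a3, -0.19 for Col12a1, 0.50 for Col11a1 and 0.10 for Sparc. By edgeR, edgeR with no filter, edgeR with median-of-ratios factors and DESeq2 they were 0.054, 0.028, 0.050, 0.050 for Col11a1 and 0.047, 0.020, 0.047, 0.047 for Sparc, and for Sparc also 0.039, 0.042 and 0.049 with median-of-ratios, TMM and non-mitochondrial scaling. With 1 library left out, the ranges that crossed 0 were Col11a1 -0.51 to 0.36, Col12a1 -0.40 to 0.39, Col24a1 -0.056 to 0.16, Col3a1 -0.20 to 1.00, Col5a3 -0.26 to 0.40, Col6a2 -0.59 to 0.030, Col6a3 -0.52 to 0.18, Ctsk -0.62 to 0.57, Mia3 -0.058 to 0.067 and Sparc -0.15 to 0.081. The assembly partner median also crossed 0, from -0.10 to 0.75. So did the marker medians for endothelial (-0.065 to 0.33), epithelial (-0.43 to 0.028), keratinocyte (-0.18 to 0.51) and erythroid genes (-0.92 to 0.28). Marker medians that moved were neutrophil 1.30, 1.23, 1.30, 1.31 in the same 4 count fits, and, by edgeR with no filter, keratinocyte 1.87 and adipocyte 3.06. The causes were not tested. The number of libraries, 3 and 4, limits the precision: for Col1a1 the SE of 0.95 was close to the log2 fold change of 1.11. Chains under the filter entered only the fits without a filter.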
